A study of Homo sapiens with 12 samples.

Results

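The comparison described here set 4 cultures in which 2 mutant breast epithelial lines grew together against 4 cultures of one of those lines grown alone. It used 8 of the 12 arrays of the series and was chosen by the titles of the arrays. Both lines were derived from MCF-10A, a non-tumorigenic human mammary epithelial line that depends on epidermal growth factor (EGF). The HER2 L755S line carried a kinase-domain mutation of the receptor HER2 (gene ERBB2), and the PIK3CA E545K line carried a helical-domain mutation of PI3K, a lipid kinase, in its catalytic chain. The co-culture held about 75% HER2 L755S cells by the submitters' droplet digital PCR, the rest being PIK3CA E545K cells. All groups were kept at a physiologic amount of EGF without further treatment and were harvested after 7 to 14 days. The remaining 4 arrays, of the PIK3CA E545K line alone, entered the fit and are printed beside some of the results as a reference. The labels name 1 line for each genotype and do not say whether the cultures of a group were started independently, so p-values measure the spread between these cultures, which may be technical. They give no harvest day for single cultures, and no parental MCF-10A culture was analysed here.

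HER2 and EGFR are receptor tyrosine kinases that pair with one another, and with the kinase-poor partner ERBB3, to switch on the RAS-ERK cascade and PI3K. ERK induces its own phosphatases and inhibitors as well as transcription factors of the AP-1 and ETS families, which raise cyclin D and start the E2F and FOXM1 programmes of replication and mitosis. PI3K acts through the kinase AKT, which keeps FOXO transcription factors out of the nucleus and favours the making of lipid. An RNA measurement on a mixed culture sums both kinds of cells, so a low level from fewer cells that make a transcript and from less RNA in each cell cannot be told apart. For a high level, the part that each line contributes cannot be told apart either.

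Promoter sequences illustrate the gene groups on which the comparison turned. The 250 bases before the start of 6 genes are printed 5′ to 3′ on the gene's strand from RefSeq (GRCh38.p14), with matches to short motifs in capitals. In PLK1 (chr16:23678639-23678888, + strand) and CCNB2 (chr15:59104896-59105145, + strand), mitotic genes far higher in the co-culture, capitals mark the cell cycle homology region (TTTGAA or TTCGAA) and the CCAAT box bound by NF-Y. In CDC6 (chr17:40287629-40287878, + strand), a replication licensing gene, they mark an E2F motif (TTTGGCGC, TTTCGCGC, TTTCCCGC or TTTGGCGG) and CCAAT boxes. In HMGCS1 (chr5:43313413-43313662, − strand), an early enzyme of cholesterol synthesis, they mark CCAAT boxes. In ASNS (chr7:97872409-97872658, − strand), the asparagine synthetase gene, they mark TGATGNAA, a core bound by ATF4. In TAP1 (chr6:32853705-32853954, − strand), a peptide transporter gene that was lower in the co-culture, they mark the interferon-response element (TTTC, any 2 bases, then TTTC), which matched at 2 overlapping places. All motifs were searched on both strands, and no motif listed contains another.
PLK1: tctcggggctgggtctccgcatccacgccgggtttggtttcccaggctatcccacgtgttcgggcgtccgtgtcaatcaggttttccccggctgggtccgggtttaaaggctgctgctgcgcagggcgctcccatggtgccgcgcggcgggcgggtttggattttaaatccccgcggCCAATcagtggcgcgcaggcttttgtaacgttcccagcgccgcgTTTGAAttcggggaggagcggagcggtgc
CCNB2: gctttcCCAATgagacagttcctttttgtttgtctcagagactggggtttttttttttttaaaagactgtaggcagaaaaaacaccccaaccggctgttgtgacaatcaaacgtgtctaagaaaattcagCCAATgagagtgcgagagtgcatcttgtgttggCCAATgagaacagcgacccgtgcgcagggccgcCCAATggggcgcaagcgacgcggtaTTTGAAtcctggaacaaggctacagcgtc
CDC6: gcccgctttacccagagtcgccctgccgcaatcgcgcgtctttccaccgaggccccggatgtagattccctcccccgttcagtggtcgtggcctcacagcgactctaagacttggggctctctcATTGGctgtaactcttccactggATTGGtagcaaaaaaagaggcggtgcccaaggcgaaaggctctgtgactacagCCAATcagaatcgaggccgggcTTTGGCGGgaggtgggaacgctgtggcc
HMGCS1: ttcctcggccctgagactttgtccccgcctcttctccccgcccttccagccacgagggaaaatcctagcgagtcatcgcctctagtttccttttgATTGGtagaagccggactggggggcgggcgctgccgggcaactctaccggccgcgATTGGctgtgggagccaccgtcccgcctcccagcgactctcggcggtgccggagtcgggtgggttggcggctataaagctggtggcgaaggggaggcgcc
ASNS: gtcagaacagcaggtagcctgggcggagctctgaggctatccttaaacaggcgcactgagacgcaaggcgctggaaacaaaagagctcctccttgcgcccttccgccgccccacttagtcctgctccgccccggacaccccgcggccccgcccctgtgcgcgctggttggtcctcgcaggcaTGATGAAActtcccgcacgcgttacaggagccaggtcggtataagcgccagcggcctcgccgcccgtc
TAP1: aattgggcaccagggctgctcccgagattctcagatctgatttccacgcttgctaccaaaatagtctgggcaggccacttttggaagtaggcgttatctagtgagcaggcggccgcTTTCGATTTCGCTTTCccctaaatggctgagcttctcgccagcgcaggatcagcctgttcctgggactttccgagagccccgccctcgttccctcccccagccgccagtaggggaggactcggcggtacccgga

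The deposited values were log2 probe-set signals, and differences are given as co-culture minus HER2 L755S on that scale, so that a difference of 1 is a 2-fold change of signal. With 4 arrays a group, their number limits the precision. The median signal of the 8 arrays was 6.41 to 6.49. The 95th percentile of the 612 negative-control probe sets, used here as background, was 6.37 to 7.12. It was 6.728 to 7.12 on the HER2 L755S arrays and 6.368 to 6.661 on the co-culture arrays. Median correlation over the 12758 genes tested was 0.992 within the HER2 L755S arrays, 0.9946 within the co-culture and 0.9486 between them, and the co-culture arrays stood at 0.9857 with the PIK3CA E545K arrays, a correlation across genes. ERBB2 and PIK3CA were not analysed here because no probe set named for them was in use, so the genotypes were not checked on their own transcripts. Of 8 basal mammary markers, 8 were above background on all 8 arrays, among them KRT5 at 17.33 in HER2 L755S and 17.13 in the co-culture. Of 12 luminal markers 6 were above background on all 8 arrays, and ESR1, PGR, ELF5 and KIT were among the 5 below it on all. The listed markers of endothelium (6 of 7), fat (6 of 6) and blood (6 of 8) were below background on all 8 arrays, and of 8 fibroblast markers 4 were below and 2 above.

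The co-culture differed from the HER2 L755S culture in 51% of the genes tested, and large rises were more common than large falls. By limma with Benjamini-Hochberg adjustment, 3180 of 12758 genes were higher (24.9%) and 3323 lower (26%) at an adjusted p under 0.05, 6503 genes in either direction. A difference of at least 1 was reached by 1096 of the higher genes (8.59%) and 689 of the lower ones (5.4%), and one of at least 3 by 171 and 39. All 4 arrays of one group lay beyond all 4 of the other in 5669 genes (44.4%). The 95% confidence interval stayed within 0.5 of equal levels in 3887 genes (30.5%). The median difference over all genes tested was -0.05, and the median SD between arrays of a group was 0.20 in HER2 L755S and 0.17 in the co-culture. With 4 arrays against 4, an exact permutation test of a single gene cannot go below 0.0286.

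**Figure D1:**
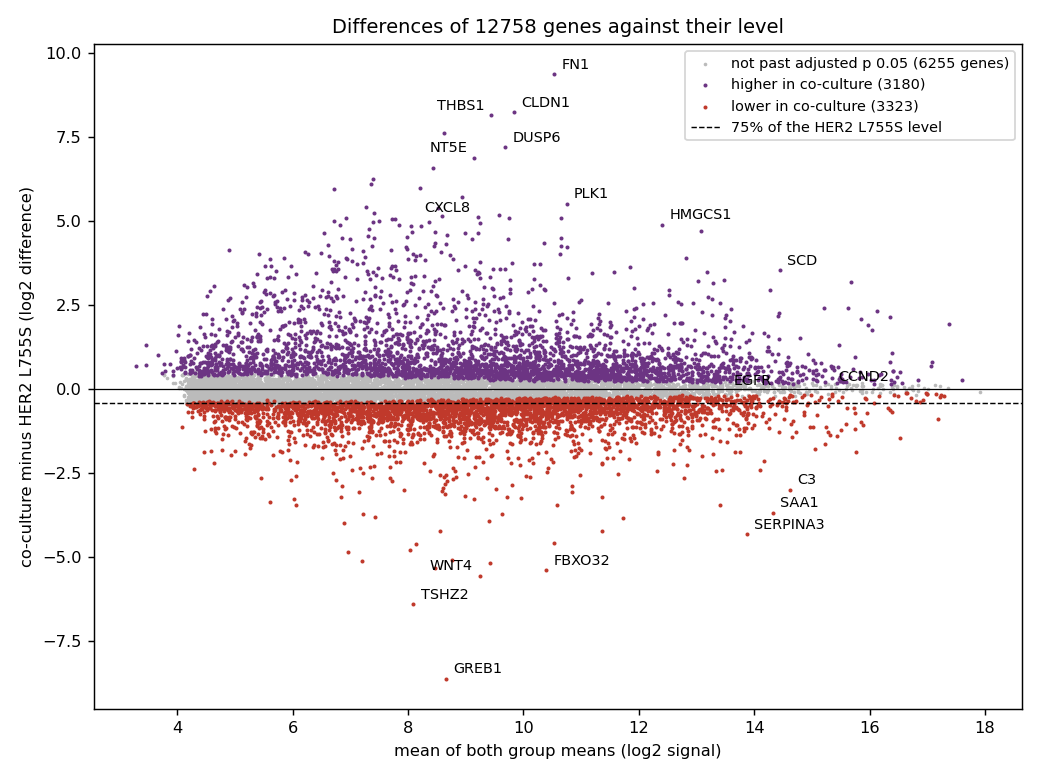
Each point is 1 of 12758 genes, with the mean of both group means on the x axis (log2 signal) and the co-culture minus HER2 L755S difference on the y axis (log2). Violet points were higher and red points lower at a limma adjusted p under 0.05, and the dashed line marks 75% of the HER2 L755S level; FN1 lies at 9.37 and GREB1 at -8.63.

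A gene whose signal was under background on all 4 arrays of one group has only a bound there. For such a gene the fold is given as at least the mean of the brighter group over the mean background of the dimmer group, where each dim array counts at its background percentile or its own signal, whichever is higher. Each array was held to its own background percentile, which was higher on every HER2 L755S array than on any co-culture array. This made the first of the next 2 counts easier to reach than the second, by an amount not tested. Of 12758 genes tested, 153 were under background on all HER2 L755S arrays and at least 1 above it on all co-culture arrays. The reverse was seen in 13. These 13 were GREB1, TSHZ2, C1S, CHI3L2, CYP3A5, C1R, CXCL14, SLC47A2, SLC2A5, ASPA, PPM1L, STARD13 and ZNF395, of which the last 5 are named after their values were seen.

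The 15 largest rises among genes whose arrays did not overlap were in genes of varied function. Matrix, junction, transport and protease genes come first here, and DUSP6, ETV5, CCNB2, CDC20 and PLK1, of the same 15, follow with their lists. FN1, which encodes the matrix protein fibronectin, read 15.34, 15.20, 15.31 and 15.03 on the co-culture arrays and 5.45, 6.44, 5.75 and 5.78 on the HER2 L755S arrays. All HER2 L755S arrays were under background, and the difference was 9.37 ± 0.14 (SE, limma adjusted p 1.43e-22), at least 306-fold. The PIK3CA E545K line read 13.16 ± 0.10 (SD, n = 4) for FN1, below the co-culture. CLDN1, a claudin of the tight junction, read 13.48, 14.10, 13.84 and 14.44 in the co-culture against 5.39 to 6.05 in HER2 L755S, at least 128-fold higher. THBS1, the matricellular protein thrombospondin 1, read 14.33, 13.38, 13.47 and 12.92 against 4.81 to 5.94, at least 94.3-fold higher, with 15.62 in PIK3CA E545K. For each of these genes every co-culture array lay above every HER2 L755S array.

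Enzymes, transporters and proteases were also among these 15. The export pump gene ABCC3 was at least 44.3-fold higher, the ecto-nucleotidase gene NT5E (CD73) at least 49.4-fold, the tetraspanin gene TSPAN1 at least 27.1-fold and the nucleobase carrier gene SLC43A3 at least 28.5-fold. LIPG, which encodes endothelial lipase, was at least 10.9-fold higher and the surface protease gene FAP at least 18.7-fold, with 11.19 in the co-culture and 11.17 in PIK3CA E545K. FAP is also a fibroblast marker, and of the other fibroblast markers DCN fell, from 10.70 to 8.03. COL1A2 did not pass, at 8.577 in HER2 L755S and 8.682 in the co-culture. COL1A1, near background at 6.565 and 6.411, did not pass either, and LUM, PDGFRA, PDGFRB and THY1 were below background in both groups. The epidermal protease gene CASP14 was the most uneven of the leading genes, at 8.77, 11.53, 11.30 and 10.46 in the co-culture against 3.51 to 4.78 in HER2 L755S. It was at least 11.7-fold higher (limma adjusted p 3.01e-12). The fitted difference, which is no measured fold because HER2 L755S was under background, went from 6.25 to 6.84 without co-culture replicate 1.

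The largest falls included secreted proteins, hormone-responsive genes and complement proteases. GREB1, a cofactor known as an oestrogen-induced gene in breast cells, read 4.55, 3.86, 4.56 and 4.42 in the co-culture against 12.94, 13.25, 13.00 and 12.72 in HER2 L755S. The difference was -8.63 ± 0.20 (SE, limma adjusted p 6.74e-20). All co-culture arrays were under background, so the co-culture held at most 1.14% of the HER2 L755S level. The zinc finger gene TSHZ2 was at most 3.65% and the complement protease gene C1S at most 4.11% of that level. WNT4, a Wnt ligand that progesterone induces in mammary epithelium, read 6.19, 6.08, 6.56 and 7.00 against 11.995 to 12.06. The fatty acid receptor gene CD36 fell by 5.18, the endothelin gene EDN1 fell by 5.11 and PDZK1IP1 fell by 4.58 on the log2 scale. The chitinase-like gene CHI3L2 was at least 9.52-fold lower, the drug-metabolising enzyme gene CYP3A5 at least 7.30-fold and the chemokine gene CXCL14 at least 15.1-fold. The adhesion gene FLRT3 fell by 4.25 and the receptor gene CMKLR2 fell by 4.23. SERPINA3, an acute-phase protease inhibitor among the brightest signals of the HER2 L755S line, went from 16.05 ± 0.08 to 11.71 ± 0.42 (SD, n = 4 each), 4.95% of the HER2 L755S level.

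**Figure D2:**
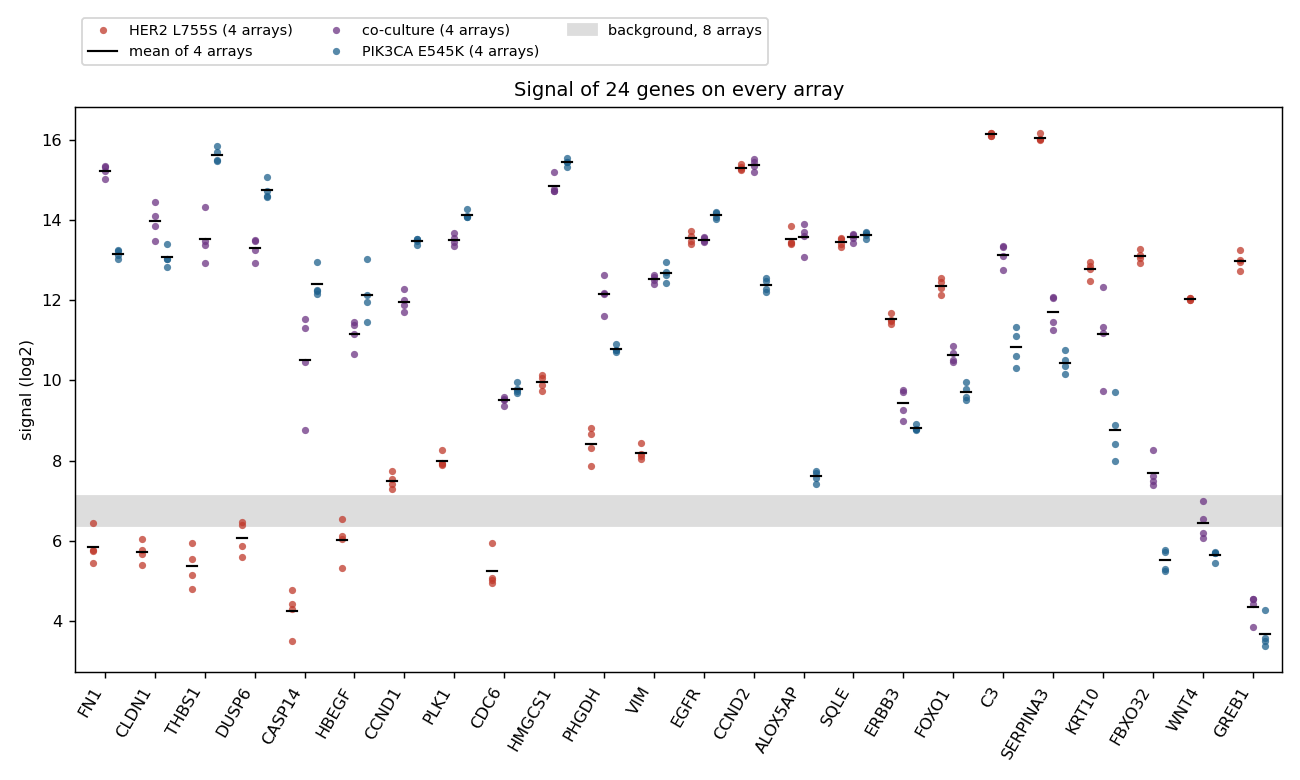
Dots show the log2 signal on each of the 4 arrays of HER2 L755S (red), co-culture (violet) and PIK3CA E545K (blue), short lines show group means, and the grey band spans the background percentile of the 8 compared arrays. The groups do not overlap between HER2 L755S and co-culture for any gene drawn except EGFR, CCND2, ALOX5AP and SQLE; the co-culture arrays of CASP14 and KRT10 are the most spread out.

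If RNA per cell were equal, a transcript made by HER2 L755S cells alone and unaltered there would be diluted to about 75% in the mixture, a difference of -0.42. A one-sided limma test against that margin placed 1024 of 12758 genes (8.03%) below 75% of the HER2 L755S level at an adjusted p under 0.05. GREB1, SERPINA3 and all other genes named in the preceding paragraph were among them. The remaining 2299 lower genes did not pass this margin. The share of 75% is a label given for the co-cultures as a whole, and RNA per cell was not measured.

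Most listed feedback genes of ERK, which are read as a gauge of the pathway's output, rose in the co-culture. Of 17 listed feedback phosphatases and inhibitors 15 were tested, 11 were higher and 2 lower, where 24.9% and 26% of all genes tested were. The median difference was 1.24, against -0.05 over all genes. The median level of the list was 10.47 in the co-culture, 7.82 in HER2 L755S and 10.76 in PIK3CA E545K. The shares of all genes, 24.9% higher and 26% lower, also stand beside the counts of the lists that follow. A gene entered testing with signal above the 30th percentile on any 4 of 12 arrays, so a member bright in only 1 group could enter, here and in the lists that follow. List medians include members under background in a group, whose differences are no measured folds. DUSP6, the ERK-specific phosphatase, read 13.49, 13.48, 12.93 and 13.24 against 5.87, 6.39, 6.46 and 5.61, at least 80.1-fold higher. SPRED2 was at least 9.52-fold and SPRY4 at least 2.45-fold higher, and both encode inhibitors of RAS-ERK signalling. DUSP5 rose by 3.70 and DUSP4 by 3.56. DUSP1 fell by 0.77, and the EGFR inhibitor gene ERRFI1 fell by 0.26 (limma adjusted p 0.0088), a call lost without HER2 L755S replicate 1 (adjusted p 0.05154).

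Among 20 tested AP-1, ETS and immediate-early factors, 11 were higher and 3 lower, with a median of 0.91. The ETS factor gene ETV5 was at least 6.63-fold higher, IER3 rose by 2.42 and the AP-1 subunit gene FOSL1 by 2.10. In the opposite direction FOSL2, another AP-1 subunit, fell from 13.97 ± 0.11 to 11.69 ± 0.21 (SD, n = 4 each), ETS2 fell by 1.05 and FOS fell by 0.97. MYC did not pass, at 15.02 ± 0.08 in the co-culture and 15.09 ± 0.10 in HER2 L755S, and its 95% interval lay within 0.5 of equal.

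EGFR family genes showed 1 large change among the receptors and 1 among the ligands. Of 8 tested ligands 3 were higher and 1 lower (median 0.07). HBEGF, a membrane-anchored EGFR ligand, read 11.38, 11.14, 10.67 and 11.45 against 5.32, 6.06, 6.55 and 6.12, at least 18.4-fold higher. TGFA rose by 0.63, and EPGN fell by 0.47, with overlapping arrays in both. The neuregulin gene NRG1, which encodes an ERBB3 ligand, was called higher with both groups under background. ERBB3 read 8.99, 9.26, 9.71 and 9.76 in the co-culture against 11.67, 11.49, 11.40 and 11.51 in HER2 L755S, and fell by 2.09 ± 0.14 (SE, limma adjusted p 1.36e-11) to 23.5% of the HER2 L755S level. EGFR read 13.55, 13.46, 13.57 and 13.44 against 13.39, 13.60, 13.71 and 13.46, with a difference of -0.03 (95% interval -0.20 to 0.13). The EGFR arrays of both groups overlapped, and ERBB4 was at background in both.

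Cyclins, their kinases and the factors that drive them rose together with a few exceptions. Of 17 cyclin and CDK genes 15 were higher and 0 lower by limma (median 1.62). Their median level was 10.64 in the co-culture, 6.90 in HER2 L755S and 11.17 in PIK3CA E545K. CCND1, the D-type cyclin that couples growth signals to the cycle, read 11.87, 12.27, 12.003 and 11.71 against 7.55, 7.43, 7.30 and 7.73, a difference of 4.46 ± 0.12 (SE, limma adjusted p 8.32e-19). The mitotic cyclin CCNB2 was at least 8.08-fold higher, CCNA2 rose by 4.63, CCNB1 by 4.08 and CDK1 by 3.97. CCND2, another D-type cyclin, read 15.19, 15.45, 15.51 and 15.34 against 15.24, 15.26, 15.32 and 15.39. Its arrays overlapped, with a 95% interval of -0.10 to 0.25, although the PIK3CA E545K line read 12.37 ± 0.16 (SD, n = 4). The transcription factor genes FOXM1, at least 14.8-fold higher, MYBL2, at least 3.06-fold, and E2F7, at least 2.02-fold, were among 13 of 16 higher E2F, pocket protein and related genes. RBL2, the pocket protein p130 of resting cells, fell by 1.10 to 46.7% of the HER2 L755S level. Of the CDK inhibitors, CDKN1A (p21) rose by 0.96, CDKN1B (p27) fell by 0.98 and CDKN1C (p57) fell by 0.53. CDKN3, a phosphatase gene of dividing cells, was at least 4.41-fold higher.

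Genes of DNA replication were mostly higher. All 23 genes of the MCM helicase and its loading were tested, and 21 were higher (median 1.76). Their median level was 8.83 in the co-culture, 6.11 in HER2 L755S and 8.88 in PIK3CA E545K. Of these genes, 10 were under background on all HER2 L755S arrays but not on all co-culture arrays, and 3 on all arrays of both groups. CDC6, whose promoter is shown above, read 9.54, 9.52, 9.59 and 9.37 against 5.96, 5.09, 4.96 and 5.04, at least 5.83-fold higher. The helicase subunit genes MCM5 and MCM6 were at least 3.66-fold and 2.44-fold higher. The origin recognition genes ORC2 and ORC4 did not pass, with differences of -0.11 and -0.27. At the fork, 22 of 24 genes were higher (median 1.07), among them the flap nuclease gene FEN1, by 2.68, and the clamp loader gene RFC3, by 2.26. The median level of the fork genes was 8.30 in the co-culture, 6.88 in HER2 L755S and 8.58 in PIK3CA E545K. The checkpoint mediator gene CLSPN was at least 1.36-fold higher. All 20 tested genes of nucleotide supply were higher (median 0.83), among them RRM2, the ribonucleotide reductase subunit of S phase, at least 9.76-fold, and the thymidylate genes TK1, at least 8.95-fold, and TYMS, by 3.45. Of 14 tested genes of homologous recombination and the Fanconi pathway 12 were higher, with the nuclease gene EXO1 at least 4.34-fold, and 1 was lower, PALB2, by 0.46.

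Mitotic genes were higher as 3 lists, and 2 of these had the largest medians of all lists. PLK1, the kinase that drives entry into and passage through mitosis, read 13.67, 13.45, 13.56 and 13.35 against 7.91, 7.93, 8.26 and 7.89. Both groups were above background, and the difference was 5.51 ± 0.10 (SE, limma adjusted p 1.69e-21), 45.5-fold. CDC20, the activator of the anaphase-promoting complex, was at least 18.99-fold higher, and the checkpoint kinase genes TTK and BUB1 were at least 12.9-fold and 9.73-fold higher. Of 21 spindle checkpoint and anaphase genes 18 were higher (median 2.76), of 23 kinetochore and centromere genes 22 (median 2.31), and of 20 mitotic kinesin and spindle genes 17 (median 3.23), with 0 lower in each by limma. The median level of the spindle checkpoint list was 9.28 in the co-culture, 5.83 in HER2 L755S and 9.25 in PIK3CA E545K. In the same order the kinetochore list stood at 8.12, 5.86 and 8.12, and the kinesin list at 9.87, 6.75 and 10.11. In these 3 lists 13, 14 and 8 members were under background on all HER2 L755S arrays but not on all co-culture arrays. Their list medians are thus no measured folds. At the kinetochore CENPF rose by 4.95, and NUF2 and NDC80 were at least 3.13-fold and 3.25-fold higher. The motor genes KIF2C, which removes tubulin from microtubule ends, and KIF20A, of cytokinesis, were at least 5.73-fold and 7.50-fold higher. KIF5B and KIF1B, motors of organelle transport counted in the same list, did not pass, at -0.08 and 0.08.

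The higher mitotic genes often carried the motifs shown for PLK1 and CCNB2. Of 47 with a promoter in the RefSeq table, 35 (74.5%) held the cell cycle homology region within 250 bases before to 50 after the start, against 16.6% of all 27305 promoters and 11.9% of those of genes tested. The CCAAT box was also in 35 (74.5%), against 35.7% and 36.6%. Of 48 higher replication and repair genes with a promoter 23 (47.9%) held an E2F motif, against 3.43% and 5.36%, and 3 (6.25%) held the cell cycle homology region. A match is a description of letters, not a site in use. Most tested members of these lists were higher, and no share was computed for the rest. The motif shares, here and for the lists that follow, thus describe the genes listed and not their change.

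Cholesterol synthesis was higher from its first committed steps to its last, with a single tested enzyme that did not pass. Of 20 listed genes 17 were tested and 16 were higher (median 2.40). Their median level was 12.89 in the co-culture, 10.29 in HER2 L755S and 12.77 in PIK3CA E545K. HMGCS1 read 15.18, 14.72, 14.77 and 14.71 against 10.14, 9.89, 9.74 and 10.05, a difference of 4.89 ± 0.10 (SE, limma adjusted p 1.76e-20), 29.7-fold. ACAT2, which joins the first acetyl units, rose by 4.49, FDPS, which makes farnesyl diphosphate, by 3.20, and MVD, which makes isopentenyl diphosphate, by 2.93. DHCR7, the last step, rose by 2.95. SQLE, squalene epoxidase, read 13.64, 13.55, 13.42 and 13.63 against 13.52, 13.40, 13.32 and 13.54, and its groups overlapped (limma adjusted p 0.224). The sterol sensor gene INSIG1 rose by 3.30 and SCAP, the escort of the SREBP factors, fell by 0.77. Of the 15 higher genes with a promoter 12 (80.0%) held a CCAAT box, and 0 held the sterol element TCACNCCAC, which 1.15% of all promoters held.

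**Figure D3:**
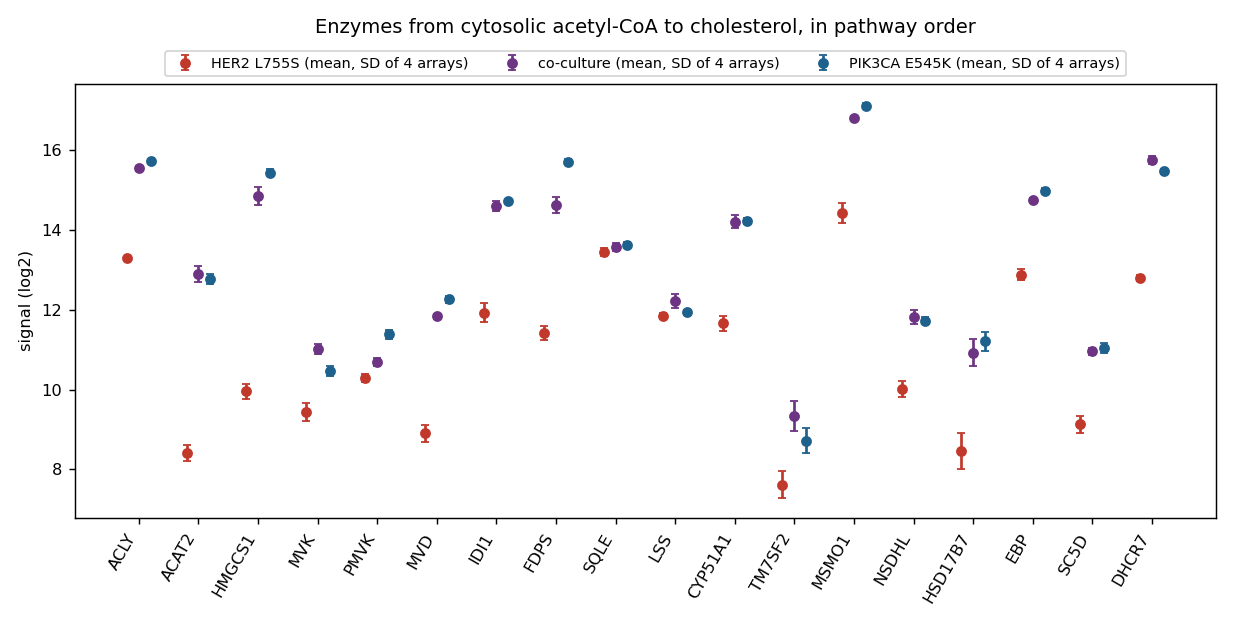
Points show the mean log2 signal and bars the SD of 4 arrays for enzymes in the order of the pathway, starting at ACLY, in HER2 L755S (red), co-culture (violet) and PIK3CA E545K (blue). HMGCS1 differs by 4.89 between co-culture and HER2 L755S and SQLE by 0.12; heights of different genes are not comparable, since each has its own probes.

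Fatty acid genes followed in part. Of 13 tested genes of fatty acid synthesis and desaturation 9 were higher and 2 lower (median 1.01). The desaturase gene SCD went from 12.67 ± 0.10 to 16.20 ± 0.05 (SD, n = 4 each), 11.5-fold. ACSS2 and ACLY, which make cytosolic acetyl-CoA, rose by 2.96 and 2.25, the elongase gene ELOVL6 by 2.52 and the desaturase gene FADS2 by 2.51. The second desaturase gene SCD5 fell by 1.10 and the elongase gene ELOVL5 fell by 0.87. Among genes of lipid uptake, storage and oxidation 11 of 22 tested were higher and 7 lower. The fatty acid carrier gene FABP5 rose by 1.90, whereas DGAT2, of triglyceride assembly, fell by 1.88 to 27.2% of the HER2 L755S level.

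Genes of amino acid supply and of the charging of transfer RNA were mostly higher. Of 13 tested ATF4-response genes 11 were higher and 1 lower (median 1.06), and of 16 cytosolic aminoacyl-tRNA synthetases 14 and 1 (median 0.98). Of 15 serine, glycine and folate genes 10 were higher and 3 lower, down to -1.76 (median 1.11). Of 18 tested amino acid transporters 11 were higher and 4 lower (median 0.63). PHGDH, the first enzyme of serine synthesis, read 12.15, 11.61, 12.18 and 12.64 against 7.87, 8.31, 8.67 and 8.81, a difference of 3.73 ± 0.18 (SE, limma adjusted p 4.28e-14). The PIK3CA E545K line read 10.79 ± 0.08 (SD, n = 4) for PHGDH, below every co-culture array. The pseudokinase gene TRIB3 was at least 10.9-fold higher, the stanniocalcin gene STC2 at least 5.30-fold and the cystine carrier gene SLC7A11 at least 12.2-fold. ASNS rose by 2.51, MTHFD2, of mitochondrial folate metabolism, by 2.57, its neighbour ALDH1L2 by 2.85, and the glutamate carrier gene SLC1A3 by 3.23. GARS1 led the synthetases with 2.54, and LARS1 was the one synthetase lower, by 0.50. SLC7A2, a carrier of cationic amino acids, fell by 2.87 to 13.7% of the HER2 L755S level. Of 30 higher genes of the ATF4, serine and synthetase lists with a promoter 8 (26.7%) held the ATF4 core. This stands against 3.67% of all promoters and 1.88% of those of genes tested.

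Median differences of housekeeping complexes were small, although most proteasome and ribosome biogenesis genes were called higher. Of 24 proteasome genes 22 were higher, with a median of only 0.55, led by PSMA2 with 1.59. Of 20 tested ribosome biogenesis genes 13 were higher and 1 lower (median 0.47), with FBL, the methylase of ribosomal RNA, up by 1.06 and NOP16 by 1.08. Of 23 respiratory chain and ATP synthase subunits 7 were higher, 1 lower and 15 did not pass (median 0.11). The largest rises were both of succinate dehydrogenase, in SDHC by 2.74 and in SDHA by 0.99. In glucose metabolism 15 of 23 tested genes were higher and 6 lower (median 0.39). The aldolase gene ALDOC rose by 2.71, while the hexokinase gene HK2 fell by 1.86, the glucose carrier gene SLC2A1 fell by 1.04 and PDK2, a kinase that restrains pyruvate oxidation, fell by 2.04.

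**Figure D4:**
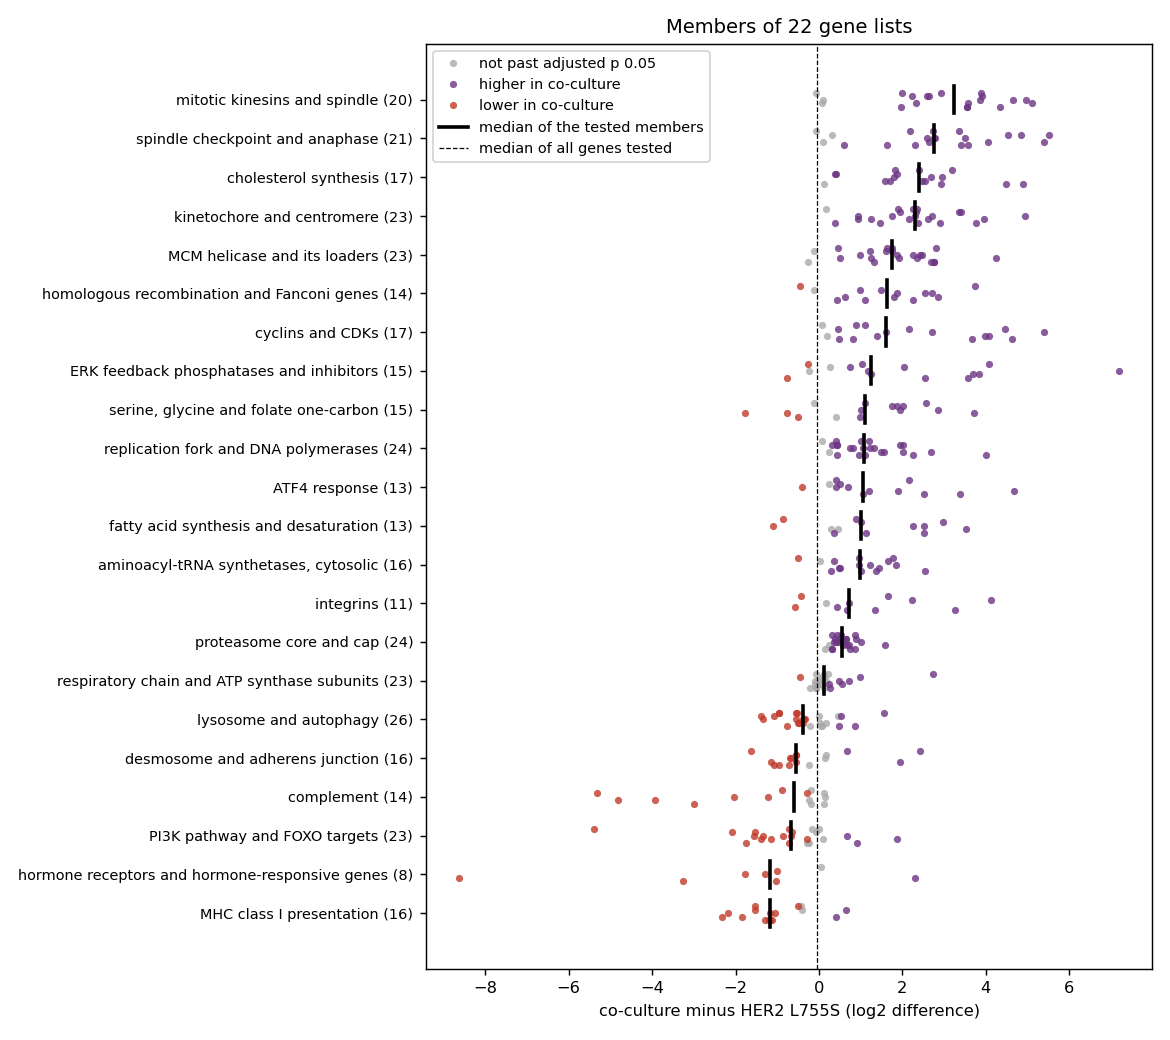
Each dot is a tested member of a gene list (number of tested members in brackets), placed at its co-culture minus HER2 L755S difference (log2) and coloured by the limma call; thick bars are list medians and the dashed line is the median of all genes. Medians run from 3.23 for mitotic kinesin and spindle genes to -1.17 for MHC class I genes.

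PI3K pathway genes and FOXO targets were more often lower than higher. Of 28 listed PI3K pathway genes and FOXO targets 23 were tested, 14 were lower, 3 higher and 6 did not pass (median -0.67), and 9 passed the margin of 75%. FBXO32, the ubiquitin ligase atrogin-1 and a classic FOXO target, read 7.40, 7.50, 7.62 and 8.28 against 12.93, 13.06, 13.28 and 13.12. Its level was 2.37% of HER2 L755S (difference -5.40 ± 0.17 SE, limma adjusted p 2.38e-17) and above the 5.52 ± 0.27 (SD, n = 4) of PIK3CA E545K. FOXO1 read 10.45, 10.50, 10.69 and 10.85 against 12.55, 12.46, 12.30 and 12.13, at 29.98% of the HER2 L755S level. CITED2 fell by 2.08 and the repressor gene BCL6 fell by 1.57. The 3 members called higher were SESN3, a stress-response gene that FOXO factors also induce, with HER2 L755S under background, and INPP4B and IRS1, with both groups under background. The stress gene GADD45A did not pass, at -0.08. Of 13 lower genes of this list with a promoter 2 (15.4%) held the FOXO core TGTTTAC, against 3.41% of all promoters and 2.46% of those of genes tested. Lysosome and autophagy genes shifted less, with 15 of 26 tested lower and 4 higher (median -0.37), counts that stand against 26% and 24.9% of all genes. The autophagy gene GABARAPL1 fell by 1.39 and the protective protein gene CTSA fell by 1.09, while the galactosidase gene GLA rose by 1.55.

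Most tested hormone-responsive genes were lower, and mammary lineage genes moved both ways. Of 18 listed hormone receptors and hormone-responsive genes 8 were tested and 6 were lower (median -1.16), all 6 below 75% of the HER2 L755S level. Besides GREB1, the growth hormone receptor gene GHR fell by 3.25, the glucocorticoid-induced factor gene ZBTB16 fell by 1.78 and the glucocorticoid receptor gene NR3C1 fell by 1.29. XBP1, a factor of the secretory pathway and of luminal cells, rose by 2.31. Of 18 tested mammary lineage genes 7 were lower, 4 higher and 7 did not pass (median -0.15), beside 26% lower and 24.9% higher of all genes. The epithelial ETS factor gene EHF fell by 3.86 to 6.89% of the HER2 L755S level, KLF4 was at least 3.53-fold lower and the luminal mucin gene MUC1 fell by 2.06, whereas SOX9 rose by 3.47 and EPCAM by 1.65.

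The machinery that presents peptides on MHC class I was lower in the co-culture. Of 20 listed genes 16 were tested, 12 were lower and 2 higher (median -1.17), and 11 were below 75% of the HER2 L755S level against 8.03% of all genes. ERAP1, which trims peptides, read 9.24, 9.70, 9.28 and 9.46 against 11.53, 11.47, 11.51 and 11.91, at 21.997% of the HER2 L755S level. The immunoproteasome gene PSMB9 stood at 20.02%, HLA-F at 27.7%, the peptide transporter gene TAP1 at 34.7% and HLA-C at 34.8%. HLA genes are alike in sequence, so a probe set named for one may read others. The members that rose, the chaperone genes PDIA3 by 0.64 and CALR by 0.40, act on glycoproteins in general. Of 11 lower genes with a promoter 7 (63.6%) held the interferon-response element, against 3.65% of all promoters and 2.9% of those of genes tested. Interferon-response genes as a list were mixed, with 4 of 23 tested higher and 7 lower (median 0.02), beside 24.9% and 26% of all genes. SAMD9L was at least 3.42-fold lower and the RNA sensor gene IFIH1 fell by 1.47, whereas IFITM2, which has close relatives, rose by 1.46. The 4 tested MHC class II genes were at background in both groups.

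Complement genes were lower, while chemokines, interleukins and acute-phase genes moved both ways. Of 14 tested complement genes 8 were lower and 0 higher by limma, and 7 passed the margin of 75%. C3, the hub of the cascade, read 12.74, 13.09, 13.33 and 13.34 against 16.09, 16.16, 16.09 and 16.17, at 12.5% of the HER2 L755S level. C1R was at least 15.1-fold lower, the alternative-pathway protease gene CFB stood at 6.57% and C1RL at 24.3%. Of 23 tested chemokine, interleukin and acute-phase genes 10 were higher and 6 lower (median 0.21), beside 24.9% and 26% of all genes. The acute-phase gene SAA1 fell by 3.69 and the cytokine gene IL32 fell by 2.01. CXCL8, a chemokine that attracts neutrophils, read 11.76, 12.08, 11.91 and 11.31 against 7.06, 6.28, 7.03 and 6.22 and rose by 5.12 ± 0.20 (SE, limma adjusted p 1.25e-15). IL18 rose by 3.30. Blood-cell markers summed to 8.74 to 9.03 in the co-culture and 7.48 to 7.65 in HER2 L755S, while PTPRC, CD3E, CD3D, MS4A1, LYZ and HBB stayed below background on all 8 arrays. The macrophage markers CD14 and CD68 were at least 1.76-fold and 1.18-fold higher. CD14 and CD68 read 7.778 and 7.207 in the co-culture and 7.514 and 7.385 in the PIK3CA E545K line alone. In that line the blood-cell markers summed to 8.653 to 8.998. The part of other cells in these results was not tested.

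Fibronectin, matricellular and integrin genes rose more often than they fell, and laminins did not. Of 17 tested fibronectin and matricellular genes 10 were higher and 4 lower (median 0.80). Besides FN1 and THBS1, the fibrillin gene FBN2 was at least 2.93-fold higher, while THBS3 fell by 1.51 and TGFBI fell by 0.89. Of 11 tested integrins 8 were higher (median 0.72), among them ITGB5, at least 7.00-fold, the collagen receptor chain ITGA2, by 3.26, and the fibronectin receptor chain ITGA5, by 2.24. ITGB1, the common beta chain, fell by 0.57. Of 6 tested laminins 1 was higher and 3 lower (median -0.27), with LAMA1 at least 1.69-fold higher, while LAMB1 fell by 1.42 and LAMB2 fell by 0.83. The protease inhibitor gene SERPINE2 was at least 8.34-fold higher, TIMP1 rose by 3.48 and the plasminogen activator gene PLAT by 2.93, while TIMP3 fell by 0.88. Of 17 tested genes of the mesenchymal state and EMT factors 7 were higher, 2 lower and 8 did not pass (median 0.29). Over all genes tested the shares were 24.9% higher and 26% lower. VIM, the intermediate filament of mesenchymal cells, read 12.51, 12.63, 12.58 and 12.40 against 8.17, 8.45, 8.04 and 8.11, and ACTA2 and TPM2 rose by 2.39 and 2.23. The members called lower were TCF4, at -0.46, and the EMT factor gene ZEB2, which was under background in both groups.

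Cell junction and keratin genes changed in both directions, as did all genes tested (24.9% higher and 26% lower). Of 16 tested desmosome and adherens junction genes 10 were lower and 3 higher (median -0.56). The desmosomal cadherin gene DSG3 read 14.21, 14.38, 14.37 and 14.70 against 16.15, 16.05, 16.09 and 15.91, at 32.2% of the HER2 L755S level. DSC3 fell by 1.16, the plaque gene DSP fell by 1.07 and the E-cadherin gene CDH1 fell by 0.71, while the plaque gene PKP2 rose by 2.42. Of 13 tested tight junction genes 3 were higher and 5 lower (median -0.10). Besides CLDN1, CLDN4 was at least 2.47-fold higher and CLDN7 rose by 1.87. OCLN was at least 1.46-fold lower by the rule for dim genes. Its HER2 L755S arrays read only 6.60 to 7.25, near background and under the 7.12 of replicate 2, so the size of this fall is uncertain. MARVELD3 fell by 0.53, MARVELD2 fell by 0.48 and the polarity gene CRB3 fell by 0.46, while CGN was called lower with both groups under background. MARVELD3, MARVELD2 and CRB3 are named after their values were seen. Of 13 tested keratins 3 were higher and 8 lower. KRT18 and KRT7, keratins of simple epithelium, rose by 2.02 and 1.67, and KRT8, the usual partner of KRT18, fell by 0.66. KRT10, of differentiating epidermis, read 9.74, 11.19, 11.34 and 12.32 in the co-culture, the widest spread among the keratins named, against 12.47 to 12.96 in HER2 L755S, and fell by 1.62 ± 0.35 (SE, limma adjusted p 0.000512).

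**Figure D5:**
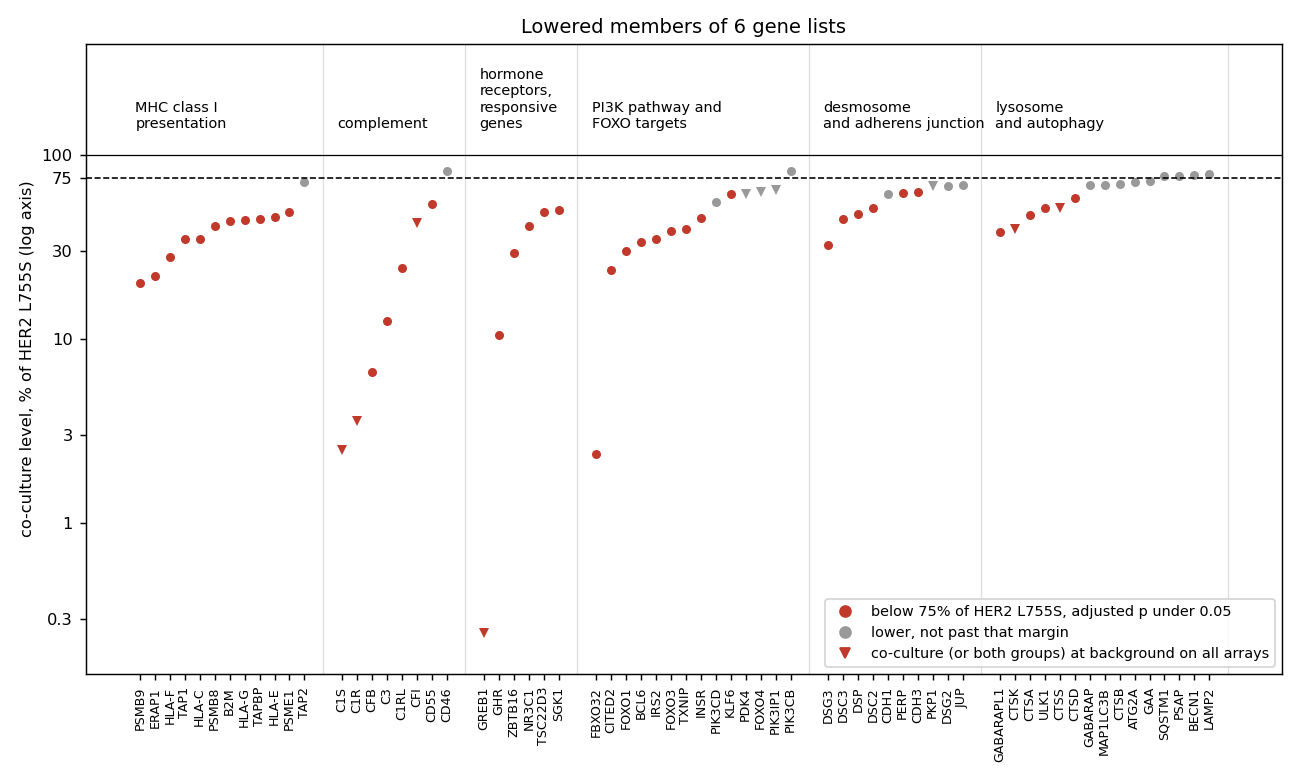
The co-culture level as a percentage of the HER2 L755S level, on a log axis, for the members of 6 lists that were lower at a limma adjusted p under 0.05. Red symbols passed the one-sided test against 75% (dashed line), grey ones did not, and triangles are measured ratios of genes at background in the co-culture or in both groups; 11 of the 12 lowered MHC class I genes and 7 of the 8 lowered complement genes are red.

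Some transcripts stayed at the HER2 L755S level although the PIK3CA E545K line differed. ALOX5AP, the activating protein of leukotriene synthesis, read 13.89, 13.58, 13.69 and 13.08 in the co-culture and 13.40, 13.45, 13.41 and 13.85 in HER2 L755S, with 7.61 ± 0.15 (SD, n = 4) in PIK3CA E545K. Its difference from HER2 L755S was 0.03 (95% interval -0.25 to 0.32). S100A8, a calcium-binding alarmin, read 14.50 ± 0.20 against 14.46 ± 0.17 (SD, n = 4 each), with 12.08 in PIK3CA E545K, and has close relatives. Like CCND2, both overlapped between the compared groups, and their intervals lay within 0.5 of equal. Both contrasts of the co-culture share its 4 arrays, so these levels are set side by side as a description. Its relative S100A7 went up from background, at least 6.76-fold, to 9.72 ± 0.73 (SD, n = 4), above the 7.42 of PIK3CA E545K.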

How the data were processed

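Per the submitters' processing notes, the deposited log2 signals of the probe sets came from the Transcriptome Analysis Console. Its version, background correction and normalization are not given in the sources used here, and the values were used as they stand. Per the labels' protocols, 5 µg of total RNA from each culture entered the labelling reaction. Of 24351 probe sets, 17709 carried 1 gene symbol in the platform annotation and covered 17687 genes, with the brightest kept for the 20 genes that had several. Testing required a signal above the 30th percentile on at least 4 of 12 arrays, which 12758 genes met. All 12 arrays entered 1 limma fit (3.58.1, R 4.3.3) by group, with the prior spread depending on signal. Contrasts between groups were two-sided, the test against 75% one-sided, and Benjamini-Hochberg adjustment ran over all genes tested. Of 1271 genes in 68 lists, 1161 had a named probe set and 1008 were tested. Code was tested on simulated data. Named genes were the 15 largest differences in each direction whose arrays did not overlap, the leading, opposing and brightest uncalled members of each list, every member of short lists, the largest differences among genes above background in 1 group, and EGFR and ERBB3. The comparison, the lists and this rule were chosen with earlier results of these data known. Promoters of 10464 genes tested came from RefSeq. The build behind the array annotation is not given in the sources used here, so no probe coordinates are printed.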

Additional observations from a re-analysis of the deposited data

Results flagged for a closer look

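In 20 of 468 pairs of a named gene and a group (4.27%), 1 of the 4 arrays lay far from the rest by Dixon's test at the 95% level. Chance gives about 1 in 20. Values here are log2 signals, each with the next array's value. Set apart at the high end in HER2 L755S were ALOX5AP at 13.85 on replicate 4 (next 13.45), BCL6 at 14.44 on replicate 1 (next 14.12), CDC6 at 5.955 on replicate 1 (next 5.086), ERAP1 at 11.91 on replicate 4 (next 11.53) and IFITM2 at 13.39 on replicate 3 (next 13.11). Also at the high end there were GADD45A at 12.41 on replicate 1 (next 12.04), ORC4 at 11.66 on replicate 4 (next 11.15), PLAT at 8.159 on replicate 4 (next 7.281), PLK1 at 8.262 on replicate 3 (next 7.933) and TPM2 at 10.53 on replicate 1 (next 10.1). At the low end in HER2 L755S stood IER3 at 13.5 on replicate 1 (next 14.15), ITGB1 at 15.76 on replicate 2 (next 15.92), OCLN at 6.595 on replicate 2 (next 7.197), TTK at 5.242 on replicate 2 (next 5.97) and ZNF395 at 8.166 on replicate 1 (next 8.6). In the co-culture, DUSP4 at 11.57 on replicate 2 (next 11.33), HMGCS1 at 15.18 on replicate 1 (next 14.77) and NUF2 at 8.986 on replicate 1 (next 8.532) were set apart at the high end, and COL8A1 at 7.786 on replicate 4 (next 8.494) and SDHA at 12.02 on replicate 2 (next 12.34) at the low end.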

How the results depend on the processing

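Counts over all genes stayed within 1.5 times of the reported ones in 134 of 138 values from 25 alternatives. The exceptions were a margin of 0.5 in place of 0, with 1331 genes higher and 938 lower, no filter on low signals, with 6880 genes within 0.5 of equal, and a share of 65% in place of 75%, with 597 genes below it. Leaving out 1 array in turn gave 3015 to 3159 higher genes, 3033 to 3294 lower ones, 903 to 1023 below 75% and 3265 to 3827 within 0.5 of equal. With the replicate number as a block, 3189 genes were higher and 3317 lower. Deviations of same-numbered arrays correlated at -0.034 to 0.055, and not every array correlated best with its own number. With 4 arrays a group, these values cannot decide whether a number marks a shared start or day, which the labels do not give. Of 3519 counts and medians of gene lists, 180 moved beyond the limits set for them. Of 5377 values for 234 named genes, 5331 kept direction and call. A call was lost in 29 values, which came from 26 genes. Under alternatives other than the margin of 0.5, 7 named genes changed direction or call. Direction changed in 4 genes, none past the threshold. ALOX5AP stood at -0.068 after quantile normalization, -0.020 after median centring and -0.077 to 0.19 without single arrays. S100A8 stood at -0.058, -0.017 and -0.049 to 0.11 in the same order. Without single arrays EGFR stood at -0.086 to 0.023 and GADD45A at -0.14 to 0.020. ERRFI1 and KRT5 lost their call without a trend (limma adjusted p 0.0677 and 0.0649), and ORC4 gained one (lower) under 4 alternatives. Signal near background limits what can be said of dim genes, and the cause of these changes was not tested.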

Other observations

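Receptors and ligands outside the EGFR family moved in both directions. So did all genes tested, of which 24.9% were higher and 26% lower, and the counts below are to be read beside these shares. Of 15 tested Eph receptors and ephrins, which signal between touching cells, 5 were higher and 2 lower by limma at an adjusted p under 0.05. The receptor gene EPHA2 was at least 11.3-fold higher, and the ligand gene EFNA5 fell by 1.27. Of 17 FGF, VEGF and PDGF genes 7 were higher and 2 lower. FGFBP1, a carrier of fibroblast growth factors, was at least 4.77-fold higher, the angiogenic factor gene VEGFA rose by 2.39, VEGFC was at least 1.58-fold higher, and the receptor gene MET fell by 0.60. Of 19 TGF-beta, activin and BMP genes 9 were higher and 4 lower. The activin subunit gene INHBA rose by 3.00, the BMP-induced genes ID1 and ID3 rose by 3.06 and 1.76, the co-receptor gene TGFBR3 fell by 2.99 and SMAD3 fell by 0.55. Besides NT5E, which makes adenosine, the nucleoside carrier gene SLC29A1 rose by 3.04 and the adenosine receptor gene ADORA2B was at least 1.02-fold higher, in a list with 6 of 13 higher and 0 lower by limma.

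Among stress and survival genes, p53 targets and ER chaperone genes were more often higher than lower. Selenoprotein genes were more often lower, and the BCL2 family and the NRF2 list moved both ways. Of all genes tested 24.9% were higher and 26% lower. Of 19 tested p53 targets 13 were higher and 3 lower (median 0.68), with the stress cytokine gene GDF15 at least 5.50-fold higher, while TP53INP1 fell by 0.94 and the repair gene XPC fell by 0.73. In the BCL2 family 6 of 14 were higher and 5 lower. The pore-forming BAK1 rose by 1.31, and BCL2L11 (BIM), a death-promoting gene that FOXO factors induce, fell by 1.00. Of 18 ER chaperone and unfolded protein response genes 11 were higher and 3 lower (median 0.56), among them MANF by 1.94 and HERPUD1 by 1.54, while the sensor gene ATF6 fell by 0.31. Of 14 selenoprotein genes 5 were lower and 1 higher. SELENOP, the secreted selenium carrier, fell by 3.20, and the thioredoxin reductase gene TXNRD1 fell by 1.17. Of 19 NRF2 targets and AKR enzymes 7 were higher and 5 lower, with PGD, of the pentose phosphate pathway, up by 2.21. AKR1C3, a steroid-converting reductase, fell by 1.89. Of 20 tested collagen genes 11 were higher and 3 lower. COL8A1 rose by 2.12 and COL6A1 fell by 1.41.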
